A study of Rattus norvegicus and Mus musculus with 34 samples.

Results

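Transcripts that are used to detect axons and pain-sensing neurons were followed in rat healing tissue. The 10 genes were chosen by name and were all found by symbol among the 20022 genes of the deposited tables. They were 3 ion channels of nociceptors (Trpv1, Scn9a and P2rx3), 3 neurofilament subunits (Nefl, Nefm and Nefh), peripherin (Prph), the neuronal tubulin Tubb3, the growth-associated protein Stmn2 and the axonal ubiquitin hydrolase Uchl1. Healing tissue came from 23 wild-type male Sprague-Dawley rats, 6 to 8 weeks old, in 6 groups. Every rat had a periodontal bone defect of standard size, cut at the molars on the cheek side of the lower jaw, and received penicillin after surgery. In the sensory nerve+ groups the inferior alveolar nerve was left intact, and in the sensory nerve- groups a segment of it was removed. Tissue was collected at day 3, 7 or 14, from 4 rats per group and from 3 rats in the sensory nerve+ group of day 3. The surgery interrupts 1 nerve and leaves other nerves of the jaw in place, and the labels describe the tissue as mixed cells. The 4 sensory nerve- rats of day 7 were deposited in a table of their own, so at day 7 the transection and any difference between tables cannot be told apart. The same holds for day 7 against day 3 or day 14 in sensory nerve- tissue.

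Nociceptors are sensory neurons that report heat, acid and tissue damage. Those of the lower jaw have their cell bodies in the trigeminal ganglion and send axons through the inferior alveolar nerve to the teeth, the gum and the bone. Most mRNA of a neuron stays in its cell body, while axons carry some mRNA of their own, and Schwann cells wrap the axons along the whole nerve. Neurofilaments and peripherin form the intermediate filaments of the axon, and several of the listed genes are also known outside neurons.

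Library totals ran from 14854389 to 18742274 estimated counts. A floor of 3 counts was used for detection, which corresponded to 0.160 to 0.202 CPM (the count scaled to library size) in the 23 libraries. Trpv1, P2rx3, Tubb3 and Uchl1 lay above the floor in all 23 rats. Prph was above it in 22 rats, Nefh in 20, Stmn2 in 16, Nefm in 11, Nefl in 7 and Scn9a in 6. Floors cover counting error only. Levels are given as whole estimated counts per rat and as CPM adjusted by the trimmed mean of M values (TMM), a scaling that sets aside the genes that differ most between libraries. Sensory nerve- rat 2 of day 3 held the highest counts of Nefl, Nefm, Scn9a, P2rx3 and Uchl1. Calls and differences that rest on that rat are also given without it. Other libraries stood apart in a list of other sensory neuron genes. The summed CPM of that list reached 260 in sensory nerve+ tissue of day 7 (group median 38.8), where Piezo2 had its highest count (3745). In that group Nefl had at most 8 counts and Nefm at most 16, and the summed CPM of Schwann cell genes was at most 221. At day 3 the sensory neuron sum reached 194 in sensory nerve+ tissue (group median 32.0) and 130 in sensory nerve- tissue (group median 29.6). The gene lists were not refitted without those sensory nerve+ libraries. In bulk tissue, fewer cells or axons of a kind and less RNA in each of them cannot be told apart.

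No member passed the test for an effect of transection at any day. At day 3, 0 of 5 tested members had a Benjamini-Hochberg adjusted p under 0.05 in edgeR's quasi-likelihood test, beside 0 of 14695 genes (0%). At day 7 this was 0 of 6 members beside 0 of 14716 genes (0%), and at day 14 it was 0 of 5 members beside 0 of 14610 genes (0%). At an unadjusted p under 0.05, edgeR had 1 member at day 3 (P2rx3), 0 at day 7 and 0 at day 14, and DESeq2 called 0 members at each of the 3 days. Over all genes, edgeR had 122, 215 and 1362 genes at an unadjusted p under 0.05 at days 3, 7 and 14, and DESeq2 called 0, 1 and 95 genes. With the days combined, 0 of 9 members were called beside 0 of 15858 genes (0%), with 1 member at an unadjusted p under 0.05 (P2rx3) and 0 called by DESeq2. Without sensory nerve- rat 2 of day 3, 0 of 8 tested members had an unadjusted edgeR p under 0.05 with the days combined. The test of whether the effect of transection differed between days called 0 of 9 members beside 0 of 15858 genes (0%), with 2 members at an unadjusted p under 0.05 and 0 called by DESeq2. These tests carry wide errors, and a missed threshold does not show that the groups were alike.

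**Figure D1:**
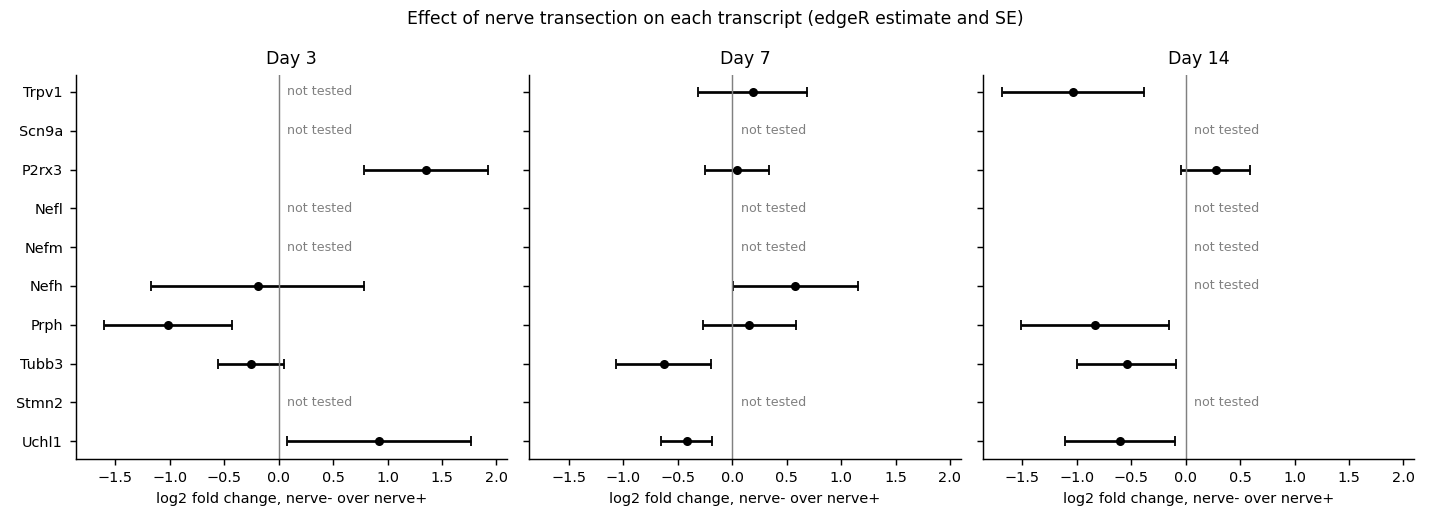
log2 fold change of each member in sensory nerve- over sensory nerve+ tissue (horizontal axis) at days 3, 7 and 14, as edgeR estimates (points) with 1 SE (bars). The 5, 6 and 5 tested members lie on both sides of 0 at each day, and members with too few counts for the test are marked as not tested.

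Members of the list were read in transected rats too. The highest counts of Nefl, Nefm, Scn9a, P2rx3 and Uchl1 among all 23 rats were in 1 and the same rat, which was a transected one (sensory nerve- rat 2 of day 3). That rat held 73.3% of all Nefl counts of the 23 rats, 75.6% of those of Nefm and 60.1% of those of Scn9a. Above the floor, Nefl was found in 5 of 11 sensory nerve+ rats and in 2 of 12 sensory nerve- rats. Nefm was above it in 6 of 11 and 5 of 12 rats, Scn9a in 3 of 11 and 3 of 12, and Stmn2 in 9 of 11 and 7 of 12.

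**Figure D2:**
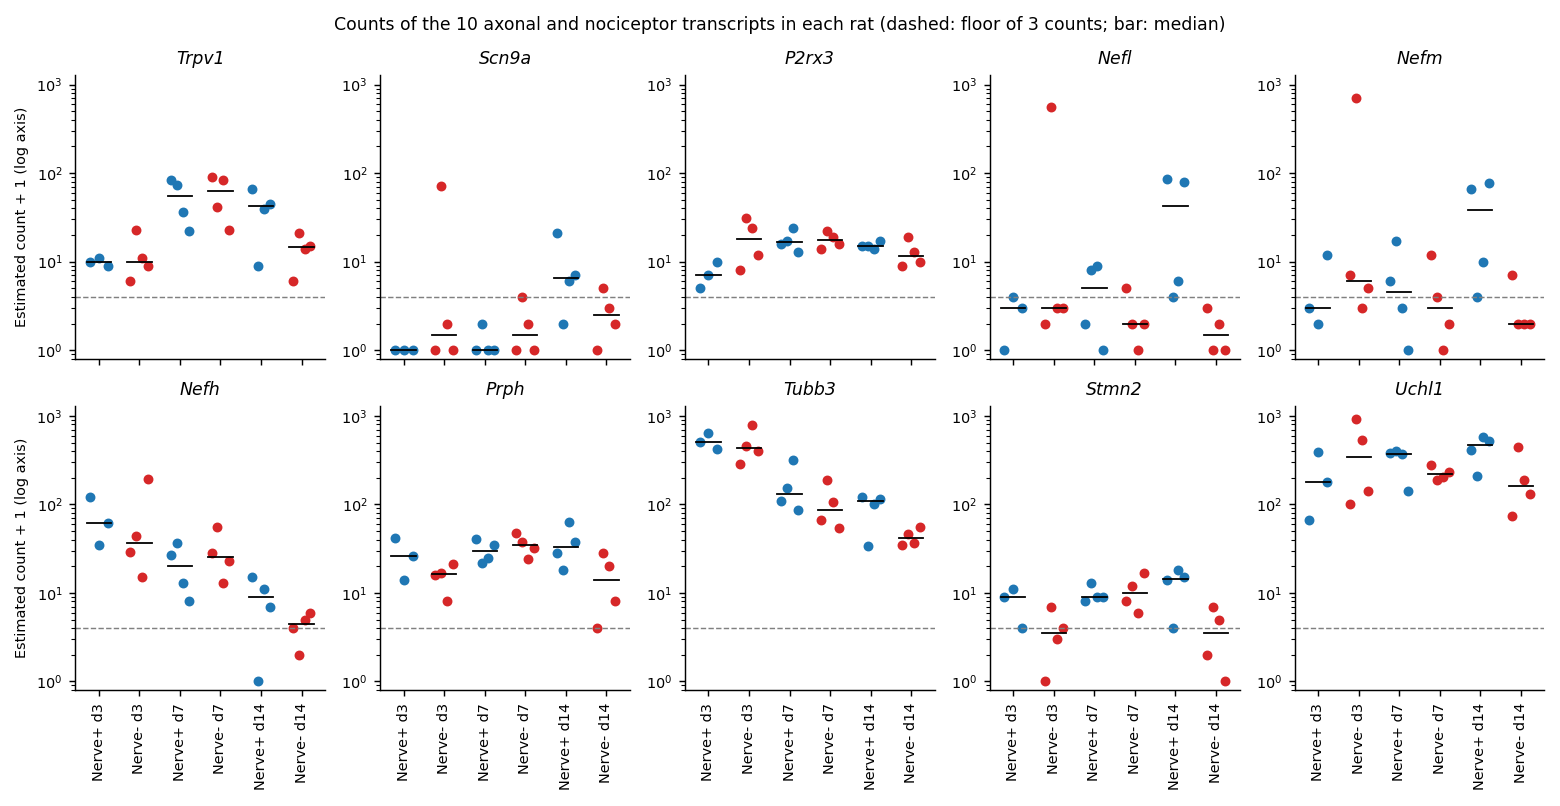
Estimated count plus 1 in each rat (log axis) for the 10 members, by nerve state (blue, sensory nerve+; red, sensory nerve-) and day, with the group median as a bar and the floor of 3 counts as a dashed line. Nefl and Nefm exceed 60 counts in 3 rats, 1 sensory nerve- rat of day 3 and 2 sensory nerve+ rats of day 14, and have 16 counts or fewer in the other 20, while Tubb3 and Uchl1 lie above it in all 23 rats.

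Nefl (gene 83613) and Nefm (gene 24588) encode the light and medium neurofilament subunits, and the 2 genes are direct neighbors, with 0 protein-coding genes between them in the RefSeq annotation. At day 3, Nefl had 0, 3 and 2 counts with the nerve and 1, 564, 2 and 2 without it. At day 7 the counts were 1, 7, 8 and 0 with the nerve and 4, 1, 0 and 1 without it. At day 14 they were 84, 3, 5 and 78 with the nerve and 2, 0, 1 and 0 without it. Thus 3 rats, 1 of them transected, carried clear Nefl signal, and the other 20 had 8 counts or fewer.

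Nefm followed the same rats. Its counts were 2, 1 and 11 against 6, 705, 2 and 4 at day 3 (sensory nerve+ against sensory nerve-). They were 5, 16, 2 and 0 against 11, 3, 0 and 1 at day 7. At day 14 they were 66, 3, 9 and 76 against 6, 1, 1 and 1. Across the 23 rats, log2 CPM of Nefl and Nefm correlated at r = 0.98, and at r = 0.95 over the 22 rats without sensory nerve- rat 2 of day 3, as a description of points that share libraries and days.

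Neither subunit had enough counts for edgeR between the nerve states of 1 day, so their mean CPM was compared by a two-sided exact permutation test. At day 14 Nefl was at 2.37 ± 2.49 CPM (SD, n = 4) with the nerve and at 0.0685 ± 0.0820 CPM (SD, n = 4) without it, a difference of -2.31 CPM (exact permutation p = 0.0571). Nefm was at 2.16 ± 2.13 CPM with the nerve and 0.187 ± 0.204 CPM without it (SD, n = 4 each, exact permutation p = 0.0571). At day 3 the difference was 6.68 CPM for Nefl (exact permutation p = 0.514) and 8.28 CPM for Nefm (exact permutation p = 0.686), and without sensory nerve- rat 2 it was 0.00426 and -0.0292 CPM. The day 14 ranges overlapped for both, and the smallest p that 4 against 4 rats allow is 0.0286. With CPM by library total, the Nefl ranges no longer overlapped and the exact permutation p was 0.0286. In all, 35 such tests were run on members with too few counts, their p-values were not adjusted, and the lowest on TMM-scaled CPM was 0.0571.

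For the day dependence of the transection effect over all 23 rats, edgeR gave an unadjusted p of 0.00346 for Nefl and 0.0123 for Nefm, both with an adjusted p of 0.998. Without sensory nerve- rat 2 of day 3, Nefm had a p of 0.148 in that edgeR test and Nefl had too few counts to be tested. Nefl also dropped below the filter without sensory nerve+ rat 1 or rat 4 of day 14.

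The rats with Nefl and Nefm were those with the most Schwann cell transcripts. The summed CPM of 12 Schwann cell and myelin genes, of which 11 were above the floor in most rats, was 2936 in sensory nerve- rat 2 of day 3 and 91.8 to 151 in the other 3 rats of its group. It ran from 117 to 155 in the sensory nerve+ rats of day 3. At day 7 it ran from 113 to 221 with the nerve and from 138 to 232 without it. At day 14 it was 385 to 3021 with the nerve and 225 to 411 without it. Sox10, the transcription factor that specifies Schwann cells, had 2082 counts in sensory nerve- rat 2 of day 3 and 2 to 6 in the other 6 rats of day 3. Its counts at day 14 were 1277, 310, 616 and 816 with the nerve and 49, 361, 148 and 67 without it, which overlapped. The part of Schwann cell content in the neurofilament values was not tested.

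**Figure D3:**
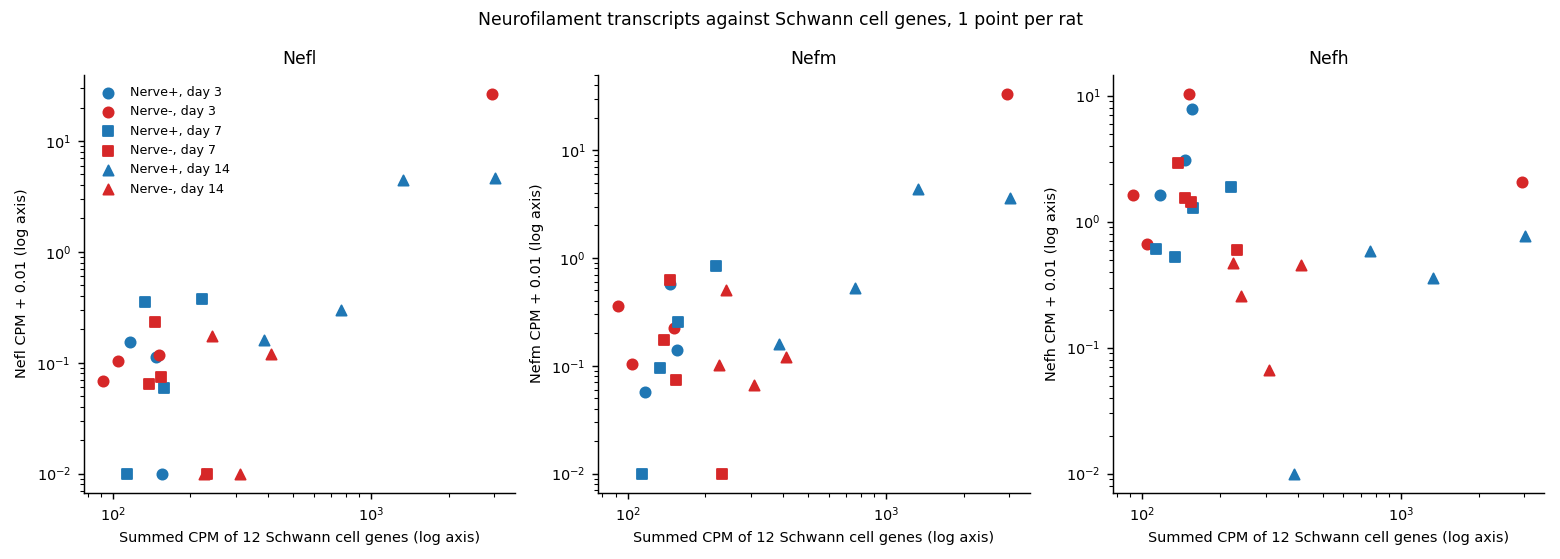
CPM of Nefl, Nefm and Nefh plus 0.01 (log axis) against the summed CPM of 12 Schwann cell genes (log axis), with 1 point per rat, blue for sensory nerve+ and red for sensory nerve-, and the marker shape for the day. The 3 rats with Nefl and Nefm above 1 CPM are the 3 with the largest Schwann cell sums, whereas the highest Nefh values lie at low sums.

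At day 14, 12 of 12 Schwann cell genes were tested between the nerve states and edgeR called 0, with 8 at an unadjusted p under 0.05. DESeq2 called 6 of them lower in sensory nerve- tissue, among them Mbp, Prx, Mag and Ncmap, which are genes of the myelin sheath. All 12 estimates were negative, with a median log2 fold change of -1.96 in sensory nerve- over sensory nerve+ tissue, beside a median of 0.03 over all genes tested. Of the muscle genes 12 of 12 also had estimates below 0 there (median -2.67), and 8 of 8 osteoblast genes had estimates above 0 (median 1.38), of which edgeR called 0, with 3 at an unadjusted p under 0.05, and DESeq2 called Dmp1. At day 3 the median over 8 tested Schwann cell genes was 2.62, and it was -0.29 over 8 tested genes without sensory nerve- rat 2. In sensory nerve+ tissue, 7 of 12 rose from day 3 to day 14 by edgeR, among them Sox10 (log2 fold change 7.98, adjusted p = 0.0165), Cdh19 (7.16, adjusted p = 0.0258) and Mag (8.44, adjusted p = 0.0332). In sensory nerve- tissue over the same interval 0 of 10 rose and 1 fell, which was Egr2. Without sensory nerve- rat 2 of day 3, 3 of 10 rose there, among them Sox10 (log2 fold change 5.84, edgeR adjusted p = 0.0108), and Egr2 fell.

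Scn9a (gene 78956) encodes the voltage-gated sodium channel Nav1.7, which sets the firing threshold of nociceptors. It was at 0 in all 3 sensory nerve+ rats of day 3 and had 0, 71, 1 and 0 counts in the sensory nerve- rats of that day. At day 7 it had 0, 1, 0 and 0 counts with the nerve and 0, 3, 1 and 0 without it. At day 14 it had 20, 1, 5 and 6 counts with the nerve and 0, 4, 2 and 1 without it. The groups overlapped at each day, and the exact permutation p for the transection was 0.571 at day 3, 0.714 at day 7 and 0.171 at day 14. Over the 22 rats without sensory nerve- rat 2 of day 3, its log2 CPM correlated with the Schwann cell sum at r = 0.89. Among those 22 rats only sensory nerve+ rat 1 of day 14 had more than 6 counts, so most values behind this r lay near the floor.

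Trpv1 (gene 83810), the capsaicin and heat receptor of nociceptors, was detected in every rat and rose between day 3 and day 7 in both nerve states. Its counts in the sensory nerve+ rats were 9, 10 and 8 at day 3, 82, 73, 35 and 21 at day 7, and 65, 8, 38 and 44 at day 14. In the sensory nerve- rats they were 5, 22, 10 and 8 at day 3, 89, 40, 83 and 22 at day 7, and 5, 20, 13 and 14 at day 14. Every rat of day 7 was above every rat of day 3 of its nerve state in CPM.

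From day 3 to day 7, Trpv1 went from 0.492 ± 0.0899 CPM (SD, n = 3) to 2.77 ± 1.32 CPM (SD, n = 4) with the nerve. This was a log2 fold change of 2.53 ± 0.50 (SE), or 5.76-fold, with an edgeR adjusted p of 0.0310. Without the nerve it went from 0.557 ± 0.334 CPM to 3.16 ± 1.66 CPM (SD, n = 4 each). The log2 fold change there was 2.47 ± 0.56 (SE), or 5.54-fold, with an edgeR adjusted p of 0.0328. At day 14 it was at 2.16 ± 1.31 CPM with the nerve and 1.07 ± 0.456 CPM without it (SD, n = 4 each), and these groups overlapped. Its log2 fold change for the transection was 0.19 ± 0.50 at day 7 and -1.04 ± 0.65 at day 14 (SE, edgeR adjusted p = 1.00 and 0.573).

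The rise of Trpv1 lost its threshold when single rats were left out. With the nerve it was kept in 1 of 7 such fits, that without sensory nerve+ rat 3 of day 7, and the adjusted p reached 0.140. Without the nerve it was kept in 3 of 8 fits, those without sensory nerve- rat 2 of day 3 or rats 2 or 4 of day 7, and the adjusted p reached 0.0911.

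Genes of skeletal muscle moved with Trpv1. From day 3 to day 7, 12 of 12 muscle genes rose with the nerve and 9 of 12 without it. From day 3 to day 14 this was 10 of 12 with the nerve and 6 of 11 without it, and edgeR called Trpv1 in neither. With the nerve, the log2 fold change of Trpv1 to day 14 was 2.14. DESeq2 called it (adjusted p = 0.0260), as did edgeR with all 23 rats in 1 fit (adjusted p = 0.0350). Without sensory nerve- rat 2 of day 3, edgeR called 4 of 12 muscle genes to day 7 and 1 of 12 to day 14 in sensory nerve- tissue. All 12 estimates stayed above 0 in both fits (median log2 fold changes 7.50 and 4.70), with 12 and 8 at an unadjusted p under 0.05. The summed CPM of these genes ran from 22.7 to 518 at day 3, from 2815 to 44366 at day 7 and from 302 to 30434 at day 14. Within day 14, sensory nerve+ rat 2 had the lowest Trpv1 level of its group (0.400 CPM) and the lowest muscle sum (323). Likewise, sensory nerve- rat 1 had the lowest Trpv1 level (0.409 CPM) and the lowest muscle sum (302) of its group. Over 23 rats, log2 CPM of Trpv1 correlated with the muscle sum at r = 0.86. The genes most like Trpv1 among all that passed the filter were Lsmem2 (r = 0.95), Adprhl1 (r = 0.93) and P2rx5 (r = 0.93), the last an ATP-gated channel. For the transection at day 14, where the muscle estimates were all below 0, edgeR had 0 muscle genes called and 0 at an unadjusted p under 0.05, and DESeq2 called 0. The part of muscle in the Trpv1 values was not tested.

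**Figure D4:**
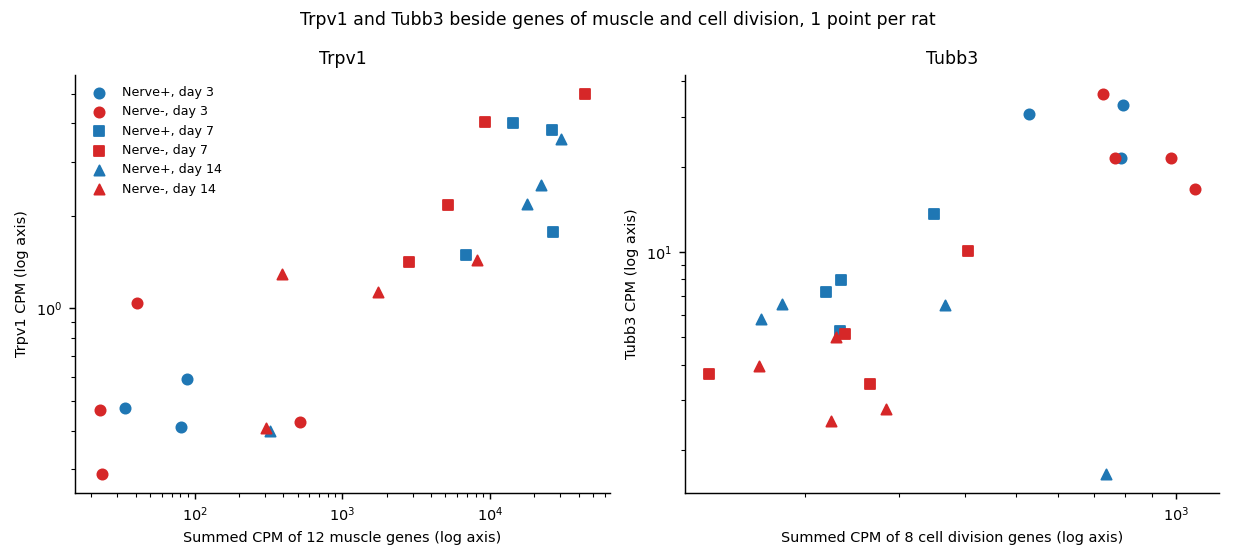
CPM of Trpv1 against the summed CPM of 12 muscle genes (left) and of Tubb3 against that of 8 cell division genes (right), all on log axes, with 1 point per rat, blue for sensory nerve+ and red for sensory nerve-. Trpv1 is at or below 1.41 CPM where the muscle sum is under 5000, and the rats of day 3 lie apart at the upper right for Tubb3.

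P2rx3 (gene 81739), an ATP-gated channel of small sensory neurons, was low but present in all rats. Its counts at day 3 were 4, 6 and 9 with the nerve and 7, 30, 23 and 11 without it. At day 7 they ran from 12 to 23 with the nerve and from 13 to 21 without it, and at day 14 from 13 to 16 and from 8 to 18. At day 3 it was at 0.336 ± 0.110 CPM (SD, n = 3) with the nerve and 0.873 ± 0.463 CPM (SD, n = 4) without it. The log2 fold change was 1.35 ± 0.57 (SE) with an unadjusted edgeR p of 0.0484 and an adjusted p of 1.00, and the groups overlapped. Without sensory nerve- rat 2 of day 3, P2rx3 had too few counts for that test. From day 3 to day 7 with the nerve, its log2 fold change was 1.43 ± 0.39 (SE, edgeR adjusted p = 0.0783). With all 23 rats in 1 edgeR fit the adjusted p was 0.0446. The genes most like P2rx3 reached only r = 0.72 (Bace2), 0.71 (Paqr6) and 0.70 (Scara5). Over the 22 rats without sensory nerve- rat 2 of day 3 they were Ogn, Sned1 and Olfml2a (r = 0.75, 0.75 and 0.74).

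Tubb3 (gene 246118), the beta-tubulin that marks neurons and growing axons, fell after day 3 in both nerve states. Its counts at day 3 were 506, 646 and 417 with the nerve and 288, 453, 778 and 402 without it. At day 7 they were 107, 153, 318 and 85 with the nerve and 66, 186, 105 and 53 without it. At day 14 they were 120, 33, 101 and 113 with the nerve and 34, 45, 36 and 54 without it. Every rat of day 3 was above every later rat of its nerve state in CPM.

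With the nerve, Tubb3 went from 28.4 ± 6.18 CPM at day 3 (SD, n = 3) to 8.50 ± 3.58 CPM at day 7 and 5.12 ± 2.34 CPM at day 14 (SD, n = 4 each). It fell by 1.68 ± 0.35 on the log2 scale (SE, edgeR adjusted p = 0.0366) to day 7, and it fell by 2.46 ± 0.46 (SE, edgeR adjusted p = 0.0411) to day 14. Without the nerve it went from 24.0 ± 8.48 to 5.58 ± 3.09 and 3.57 ± 1.14 CPM (SD, n = 4 each). There it fell by 2.12 ± 0.42 (SE, edgeR adjusted p = 0.0227) to day 7, and it fell by 2.81 ± 0.33 (SE, edgeR adjusted p = 0.00251) to day 14. The last of these, a 7.00-fold difference, was called in all 8 fits that left out 1 rat. The log2 fold changes for the transection were -0.25 ± 0.31 at day 3, -0.63 ± 0.44 at day 7 and -0.54 ± 0.46 at day 14 (SE, lowest edgeR adjusted p = 0.682). The deposited counts of Tubb3 were not whole, and estimated counts of this kind share out reads that match several genes, such as other tubulins.

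Leaving out single rats ended the other Tubb3 calls in many fits. In sensory nerve+ tissue the fall to day 7 was kept in 1 of 7 fits, without rat 3 of day 7, and the fall to day 14 in 1 of 7, without rat 2 of day 14. In sensory nerve- tissue the fall to day 7 was kept in 4 of 8 fits and was lost without rat 1 or 2 of day 3 or rat 3 or 4 of day 7.

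The promoter of Tubb3, as the member called in most comparisons, and that of Trpv1, which moved the other way, are shown from RefSeq (GRCr8, the 250 bases before the annotated start, plus strand for both). RefSeq promoters of 6 members were used. Capitals mark GC boxes (GGGCGG, either strand), and the search also covered the TATA box TATAAA, the cAMP response element TGACGTCA and the E-box CACGTG on both strands.
Tubb3, chr19:68365437-68365686: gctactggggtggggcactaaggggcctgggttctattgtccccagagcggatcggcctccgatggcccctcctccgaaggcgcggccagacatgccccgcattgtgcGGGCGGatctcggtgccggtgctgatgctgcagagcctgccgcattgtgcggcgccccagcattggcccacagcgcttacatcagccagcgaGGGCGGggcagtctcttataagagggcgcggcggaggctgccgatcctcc
Trpv1, chr10:58349686-58349935: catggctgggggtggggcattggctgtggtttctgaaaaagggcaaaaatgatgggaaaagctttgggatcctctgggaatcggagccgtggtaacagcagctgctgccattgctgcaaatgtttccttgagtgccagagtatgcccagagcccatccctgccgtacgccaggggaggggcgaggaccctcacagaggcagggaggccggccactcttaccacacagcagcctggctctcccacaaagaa
The Tubb3 window held GC boxes at positions -142 and -50, counted back from the annotated start, and the Trpv1 window held none of the 4 motifs. A GC box is present in 30.5% of 33469 rat promoter windows of the same length, and a match or its absence is a description of these letters only.

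Cell division genes were also lower after day 3. Of 8 cell division genes, 7 fell from day 3 to day 7 with the nerve and 8 without it. At day 14 against day 3, all 8 estimates were below 0 with the nerve, with 0 called by edgeR, 3 at an unadjusted p under 0.05 and 1 called by DESeq2, and 8 fell without it. Without sensory nerve- rat 2 of day 3, edgeR called 2 of 8 lower at day 7 and 8 of 8 at day 14 in sensory nerve- tissue. At day 7 all 8 estimates stayed below 0 in that fit (median log2 fold change -1.86), with 8 at an unadjusted p under 0.05. The summed CPM of the cell division genes ran from 527 to 1087 at day 3 and from 132 to 406 at day 7. Sensory nerve+ rat 2 of day 14 had a sum of 738 with only 1.65 CPM of Tubb3, the lowest of all rats. Of the epithelial genes, 0 of 5 tested were called from day 3 to day 7 with the nerve by edgeR, with 0 at an unadjusted p under 0.05 and 0 called by DESeq2. Without the nerve edgeR called 4 of 5 lower at day 7, and 0 of 5 when sensory nerve- rat 2 of day 3 was left out. In that fit 4 of 5 estimates stayed below 0 (median log2 fold change -4.62), with 4 at an unadjusted p under 0.05. The summed CPM of the epithelial genes overlapped between days, from 4.90 to 848 at day 3 and from 3.87 to 353 at day 7. The genes most like Tubb3 were Tlcd3a (r = 0.92), Aldh7a1 (r = 0.91) and Ube4b (r = 0.90). For Tlcd3a the value was 0.66 when deviations from the group means were correlated. The part of dividing or epithelial cells in the Tubb3 values was not tested.

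Nefh (gene 24587), the heavy neurofilament subunit, did not share the pattern of Nefl and Nefm. Its counts at day 3 were 120, 34 and 60 with the nerve and 28, 43, 14 and 194 without it. At day 7 they were 26, 36, 12 and 7 with the nerve and 27, 54, 12 and 22 without it, and at day 14 they were 14, 0, 10 and 6 and 3, 1, 4 and 5. The rat with 564 Nefl counts thus had 43 Nefh counts, inside the range of its group, and the 2 day 14 rats with high Nefl had 14 and 6. Over 23 rats, r was -0.02 between Nefh and Nefl and 0.65 between Nefh and Tubb3.

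From day 3 to day 14 without the nerve, Nefh went from 3.68 ± 4.51 to 0.302 ± 0.190 CPM (SD, n = 4 each) and fell by 3.69 ± 1.01 on the log2 scale (SE, edgeR adjusted p = 0.0340). The groups did not overlap. This call was kept in 1 of 8 fits that left out a rat, that without sensory nerve- rat 3 of day 3, and the stricter filter removed Nefh from the test. With the nerve the log2 fold change over the same interval was -3.27 ± 1.00 (SE, edgeR adjusted p = 0.0890), and DESeq2 gave an adjusted p of 0.00993. The genes most like Nefh were Gdf3 (r = 0.88), Rbpj (r = 0.87) and Fn1 (r = 0.86).

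**Figure D5:**
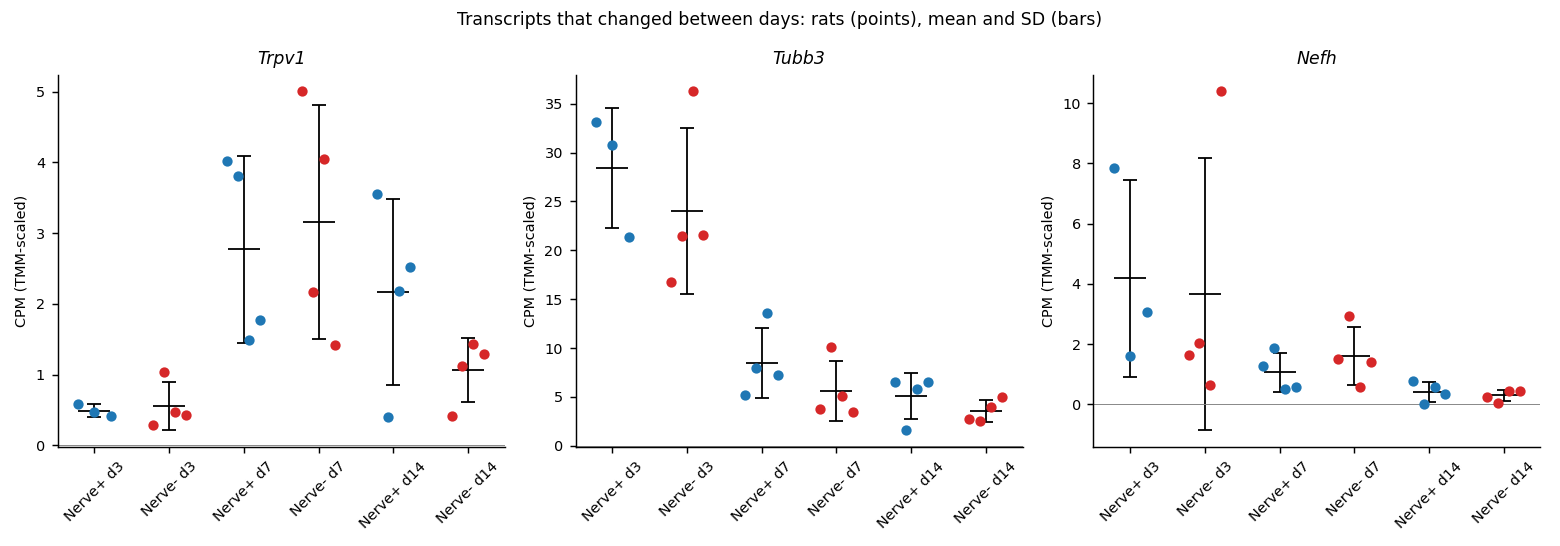
TMM-scaled CPM of Trpv1, Tubb3 and Nefh in each rat (points) by nerve state (blue, sensory nerve+; red, sensory nerve-) and day, with the mean and SD of each group as bars. Trpv1 is highest at day 7, and Tubb3 is highest at day 3 in both nerve states, at 28.4 CPM with the nerve and 24.0 CPM without it.

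In these comparisons between days, the members were called at a share to be read beside all genes tested. With the nerve, 2 of 6 tested members were called from day 3 to day 7, beside 6.67% of 15016 genes, and 1 of 8 from day 3 to day 14, beside 5.78% of 15065 genes. Without the nerve, 2 of 6 were called from day 3 to day 7, beside 10.5% of 14576 genes, and 2 of 6 from day 3 to day 14, beside 23.5% of 14449 genes. Between day 7 and day 14, edgeR called 0 of 7 members with the nerve (0.0202% of 14867 genes), and none of the 7 had an unadjusted p under 0.05. Without the nerve it called 0 of 6 (0.0138% of 14447 genes), with 2 at an unadjusted p under 0.05, Trpv1 (log2 fold change -1.57 ± 0.52, SE) and Nefh (-2.46 ± 0.68, SE). DESeq2 called both of these and 0 members with the nerve. Only members with enough counts enter these tests, and Scn9a entered none.

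Prph (gene 24688), the type III filament protein of peripheral neurons, was called by edgeR in none of the 9 comparisons of group pairs. Its counts ran from 13 to 41 with the nerve and from 7 to 20 without it at day 3, and from 21 to 40 and 23 to 47 at day 7. At day 14 they were 27, 17, 62 and 37 with the nerve and 3, 27, 19 and 7 without it. In sensory nerve- tissue it went from 0.757 ± 0.315 CPM at day 3 to 1.94 ± 0.624 CPM at day 7 (SD, n = 4 each) without overlap, with an edgeR adjusted p of 0.0807 and a DESeq2 adjusted p of 0.0205. The log2 fold changes for the transection were -1.01 ± 0.59, 0.16 ± 0.43 and -0.83 ± 0.68 (SE) at days 3, 7 and 14. The genes most like Prph were Nfib (r = 0.81), Ifitm3 (r = 0.80) and Kcne4 (r = 0.79).

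Stmn2 (gene 84510), which regulates microtubules in growing axons, stayed near the floor. Its counts were 8, 10 and 3 with the nerve and 0, 6, 2 and 3 without it at day 3. At day 7 they ran from 7 to 12 with the nerve and from 5 to 16 without it, and at day 14 they were 13, 3, 17 and 14 and 1, 6, 4 and 0. At day 14 it was at 0.660 ± 0.357 CPM with the nerve and 0.215 ± 0.209 CPM without it (SD, n = 4 each), with overlap and an exact permutation p of 0.0857. The rat with the highest Nefl count had 6 counts of Stmn2.

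Uchl1 (gene 29545), known as the nerve fiber marker PGP9.5, had 66, 389 and 179 counts with the nerve and 99, 922, 537 and 140 without it at day 3. At day 7 it had 376, 402, 366 and 139 counts with the nerve and 276, 186, 204 and 230 without it. At day 14 it had 409, 208, 580 and 524 with the nerve and 72, 443, 186 and 131 without it. The groups overlapped at each day, and the log2 fold changes for the transection were 0.92 ± 0.84, -0.42 ± 0.24 and -0.60 ± 0.51 (SE, edgeR adjusted p = 1.00, 1.00 and 0.680). Without sensory nerve- rat 2, the highest rat of all, the day 3 value was 0.24. The genes most like Uchl1 were Sema4c (r = 0.87), Sema3b (r = 0.86) and Adgrl3 (r = 0.86). Over the 22 rats without that rat they were Arhgef26, Dio2 and Synpo (r = 0.86 each).

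Other genes of the same cells were detected in part and gave few calls. Of 18 further channels, receptors and transcription factors of sensory neurons, 16 were in the tables and 9 lay above the floor in most rats, and edgeR called 0 in each of the 11 comparisons. For the transection, the number at an unadjusted p under 0.05 was 0, 0 and 1 at days 3, 7 and 14, and DESeq2 called 0. DESeq2 called 1 of these genes in all comparisons, the acid-sensing channel Asic3, which was lower at day 7 than at day 3 with the nerve (log2 fold change -2.14, DESeq2 adjusted p = 0.0358). The sodium channel Scn11a and the receptor Mrgprd, which mark small nociceptors, reached at most 3 and 2 counts in any rat. By mean CPM, which is not scaled for gene length, the leading gene was the mechanical channel Piezo2 (71 to 3745 counts). The neurotrophin receptors Ntrk3 (14 to 1582) and Ntrk2 (7 to 350) came next. Their highest counts lay in single rats, sensory nerve+ rat 3 of day 7 for Piezo2 and Ntrk3 and sensory nerve+ rat 2 of day 3 for Ntrk2. The medians over the 23 rats were 288 counts for Piezo2, 86 for Ntrk3 and 50 for Ntrk2. Avil and Trpm8 (named after their values were seen) were also above the floor in all 23 rats, with medians of 32 and 26 counts. P2rx2, the partner of P2rx3, ran from 1 to 290 counts and peaked in sensory nerve+ rat 3 of day 7, where P2rx3 had 23.

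Of 18 further genes of axons and synapses, 11 lay above the floor in most rats. The neuronal RNA-binding proteins Elavl3 and Elavl4 reached at most 2 and 3 counts in any rat, and the neurofilament-related Ina at most 5. L1cam, an adhesion molecule of axons and Schwann cells, rose from day 3 to day 14 with the nerve (log2 fold change 3.68, edgeR adjusted p = 0.0277). In sensory nerve- tissue without rat 2 of day 3, L1cam (2.72, edgeR adjusted p = 0.0174) and Kif1a (2.23, edgeR adjusted p = 0.0403) rose over that interval. Dpysl2, a regulator of axon growth also known in other cells, fell over that interval in both nerve states (log2 fold changes -0.79 and -0.69, edgeR adjusted p = 0.0439 and 0.00589). For the transection, edgeR called 0 of them at each day, with 0, 1 and 4 at an unadjusted p under 0.05 at days 3, 7 and 14. Of 11 estimates, 9 were below 0 at day 7 and 9 at day 14. The gene at day 7, named here after its values were seen, was the growth cone protein Gap43, with 81, 135, 477 and 79 counts with the nerve and 58, 53, 67 and 41 without it, which did not overlap in counts. Its log2 fold change was -1.69 ± 0.50 (SE, edgeR adjusted p = 1.00). It was -0.67 at day 3, -0.67 at day 14 and -1.01 ± 0.36 (SE, edgeR adjusted p = 0.860) over all days, where its unadjusted p was also under 0.05. The 4 at day 14, named likewise, were Map2 (-1.50), Map1b (-1.05), L1cam (-1.15) and Kif1a, all lower in sensory nerve- tissue. DESeq2 called 1 at day 14, the axonal transport motor Kif1a (log2 fold change -2.55, edgeR adjusted p = 0.519). Kif1a had 429, 63, 120 and 337 counts with the nerve and 14, 65, 17 and 25 without it at day 14. It had 1077 counts in sensory nerve- rat 2 of day 3 and 6 to 12 in the rest of its group.

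Of 10 genes of sympathetic and motor neurons, 9 were in the tables and 3 lay above the floor in most rats. Th, the first enzyme of catecholamine synthesis, reached at most 5 counts, Chat at most 3 and Slc18a3 at most 1. Slc6a2 was above the floor in 22 rats (median 20 counts, highest 203) and Phox2a in 14 rats. Slc18a2, a vesicular monoamine transporter that mast cells also express, rose from day 3 to day 14 with the nerve (log2 fold change 1.26, edgeR adjusted p = 0.0399) and without it (1.02, edgeR adjusted p = 0.0168). Checked against the list names, the tissue thus held above 10 counts of both Nefl and Nefm in 3 rats. The source of these neurofilament reads was not tested. Elavl3, Elavl4, Scn11a, Mrgprd and Chat reached no more than 3 counts in any rat. Other neuronal genes of the lists were higher in some rats, with up to 169 counts of Isl1, 76 of Rbfox3, 58 of Scn10a, 36 of Syt1, 19 of Snap25, 17 of Pou4f1 and 10 of Phox2a (named after their values were seen), and Scn10a was above the floor in 16 rats.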

How the data were processed

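Healing tissue of 23 rats was measured by bulk mRNA sequencing on a DNBSEQ platform. Per the labels and the methods, reads were aligned with HISAT to mRatBN7.2, and the submitters' processing notes also name Bowtie2; strand use and versions were not given in the sources used here. The authors deposited expected counts per gene, of which 37.0% of values were whole; they were rounded to whole counts before testing. Macrophage samples of the same series were not analysed here. Groups were taken from the sample labels, which do not say more on replicates than their numbers, so p-values measure the spread between these samples.

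Each comparison was fitted on all genes passing filterByExpr in its own groups with edgeR 4.0.16 (limma 3.58.1, R 4.3.3; quasi-likelihood F test, TMM scaling, no covariate) and adjusted by Benjamini-Hochberg over all genes tested, with a threshold of 0.05. DESeq2 1.42.0 was an alternative. Members under the filter were compared in mean CPM by two-sided exact permutation tests (scipy 1.17.1). Fits were tested on simulated data. Likeness between genes is Pearson's r of log2(CPM + 1) over 23 rats, and list sums were logged likewise. Other scalings, filters, a replicate block, a fit of all 23 rats, other floors and leaving out each rat were tried; the values of other lists without sensory nerve- rat 2 of day 3 were added after seeing the data.

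All 10 members are named. From other lists, called genes, the 4 with the highest mean CPM or defining genes at or near 0 were named, and the 3 genes most like each member with a median count of at least 10. The members and lists were chosen with earlier results of these data known. Sequences are from RefSeq (GRCr8), a later build than that of the counts. CPM are not scaled for gene length.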

Additional observations from a re-analysis of the deposited data

Results flagged for a closer look

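Within groups of 4 rats, the gap between the highest or lowest rat and its nearest neighbor was divided by the range of the group in log2(CPM + 1) and set against Dixon's critical value for groups of that size. Of 50 groups tested over the 10 members, 6 held such a rat. Chance gives about 1 in 20 only for independent values with a normal spread. Some groups here held counts near the floor, and some flags were the same rat in members that correlate. The share flagged therefore cannot be weighed against chance.

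Sensory nerve- rat 2 of day 3 stood apart upward in Scn9a (71 counts against 0, 1 and 0, ratio 0.969), in Nefl (564 against 1, 2 and 2, ratio 0.986) and in Nefm (705 against 6, 2 and 4, ratio 0.939). The same rat had 2082 counts of Sox10.

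Sensory nerve+ rat 2 of day 7 had 1 count of Scn9a where the other 3 rats had 0 (ratio 1), and sensory nerve- rat 1 of day 14 had 6 counts of Nefm where the others had 1 each (ratio 0.855). Both rest on a few counts. Sensory nerve+ rat 2 of day 14 was low in Tubb3, with 33 counts against 101 to 120 in the others (ratio 0.899). That rat also had 0 counts of Nefh, and its summed CPM of 8 macrophage genes was 11315 where the group's median was 3331.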

How the results depend on the processing

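The transection comparisons called 0 members under each alternative run. For the comparisons between days, the number of members called from day 3 to day 7 with the nerve was 2, and it was 1 with scaling by library total, 0 with the replicate block and 0 to 2 with 1 rat left out. From day 3 to day 14 with the nerve it was 1, against 3 with DESeq2, 4 with all 23 rats in 1 fit, 0 with the block and 0 to 3 with 1 rat left out. Without the nerve it was 2 from day 3 to day 7, against 4 with all 23 rats, 0 with the block and 0 to 2 with 1 rat left out. From day 7 to day 14 it was 0, against 2 with DESeq2. From day 3 to day 14 it was 2, against 1 with the stricter filter, 4 with all 23 rats, 1 with the block and 1 to 2 with 1 rat left out. The causes were not tested, other than that the stricter filter removed Nefh.

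The labels do not say whether replicate numbers pair the rats. Correlations of same-numbered rats' deviations ran from -0.376 to 0.465 and exceeded 0.1 for every pair in no comparison. For the transection at day 7 they exceeded 0.1 in 3 of 4 pairs. With 3 or 4 pairs in each comparison, this check cannot exclude pairing. The block kept the side of the threshold and the direction in 40 results and lost 6 calls, with 1 direction reversed.

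Among the results checked, directions reversed in transection effects, none of which was called. Between days, directions were checked only for members at an unadjusted p under 0.05, so reversals of smaller effects were not looked for. With library totals, P2rx3 at day 14 was -0.20 and Nefh over all days -0.14 on the log2 scale, and with the block the latter was -0.11. Scaling by library total moved the median of all genes at day 14 from 0.03 to -0.41. With 1 rat left out, log2 fold changes ran from -1.53 to 0.62 for Nefh at day 3, from -0.11 to 0.43 for Trpv1, -0.0548 to 0.147 for P2rx3 and -0.0257 to 0.508 for Prph at day 7. Over all days they ran from -0.39 to 0.26 for Nefh, -1.50 to 0.29 for Nefm and -0.30 to 0.0098 for Uchl1. CPM differences ran from -0.0969 to 0.155 for Trpv1 and -0.0292 to 11.1 for Nefm at day 3, and from -0.215 to 0.101 for Nefm and -0.0856 to 0.176 for Stmn2 at day 7.

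With a floor of 1 count, Scn9a was above it in 12 rats and Nefl in 13, and with a floor of 10 counts Trpv1 was above it in 15, Scn9a in 2, Nefl in 3, Nefm in 6 and Stmn2 in 6. Differences in Scn9a, Nefl and Nefm below a few counts were not detectable at this depth.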
